A study of Arabidopsis thaliana with 8 samples.

Results

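Photosystems and the NDH complex are large pigment-protein and redox complexes of the thylakoid membrane in the chloroplast, and they are put together by factors that do not stay in the finished complex. Some of these factors act on photosystem II, where the reaction centre protein PsbA (also called D1) is made as a precursor whose C-terminal tail has to be cut off before the manganese cluster forms. Others act on photosystem I, which receives its subunits and cofactors in steps, and on the NDH complex, which carries electrons around photosystem I. The genes described here are 5 such factors, read on 5 of the 3439 probes of an array: LPA19, RBD1 and CTPA of photosystem II, PYG7 of photosystem I and CRR41 of the NDH complex. Each was taken from a probe whose annotation holds exactly 1 gene, a condition met by 692 probes.

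Total RNA came from wild-type Arabidopsis thaliana of the ecotype Columbia 0. The control group, 4 arrays labelled 0 d, held RNA of plants at normal CO2, and the other group, also 4 arrays, held RNA of plants that spent their last 1 d at 1% CO2 by volume. No group kept at normal CO2 for that day is labelled, so CO2, the further day and the move cannot be told apart, and the labels do not say that the arrays came from separate plants. The sources used here give neither the tissue and age of the plants nor the kind of array. In RNA from whole samples, fewer cells of a type and less RNA per cell cannot be told apart.

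The gene table holds 2 of the 5 names, LPA19 (AT1G05385) and CRR41 (AT1G51100). RBD1 and PYG7 were matched by the locus published for the name, RBD1 as AT1G54500 and PYG7 as AT1G22700. CTPA was matched as AT5G46390, a locus whose published name is CTPA1 and not CTPA. The table gives these 3 loci no symbol. The CTPA match is the least certain. The name may instead belong to AT4G17740, which is on no probe of its own and shares probes with AT5G46390 and AT3G57680, and the probes that carry it were lower at high CO2, opposite to AT5G46390. The gene is therefore called AT5G46390 from here on. All 5 probes had a value above 0 on all 8 arrays, so all could be tested. Within a group, replicates 1 and 2 resembled each other, as did 3 and 4, with correlations across probes of 0.906 to 0.967 inside these pairs against 0.869 to 0.904 between them. The labels do not say what the pairs are. The results are therefore also given for each pair alone and from a fit that takes the pair as a random block.

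LPA19 and RBD1 fell after the day at high CO2, to about 0.49 and 0.58 of the control level, while AT5G46390, PYG7 and CRR41 rose by 3.31, 3.01 and 1.67 times (limma, 4 arrays a group). Of the 3 genes listed for photosystem II, 2 fell and 1 rose, the latter being AT5G46390, whose match to CTPA is in doubt. Of all 3154 probes tested, 32.5% were called, 14.8% as higher and 17.7% as lower, so a single call is no rare event on these arrays. The 2 falls were called in both pairs of arrays and also passed when the pair was a random block, whereas the 3 rises did neither. Of all probes, 11.6% were called with the same sign in both pairs and 13.9% with the random block. With a running trend along the probe numbers taken out, however, RBD1 (limma adjusted p = 0.105) and CRR41 (0.0657) lost their calls. LPA19 (0.0187), AT5G46390 (0.022) and PYG7 (0.0178) kept theirs. With that trend taken out, 879 of the 3154 probes were called. Averaging the pairs ended every call, those of LPA19 (limma adjusted p = 0.162) and RBD1 (0.21) included.

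LPA19 is a lumenal protein related to PSB27 that is known in Arabidopsis for its part in processing the PsbA precursor. Its relative intensity at normal CO2 was 1.13, 1.15, 1.07 and 1.09 in replicates 1 to 4. At high CO2 it was 0.549, 0.593, 0.576 and 0.53. All high CO2 arrays lay well below all normal arrays, and within each group the arrays were close together, with means of 1.11 ± 0.0389 and 0.562 ± 0.028 (SD, n = 4 each). The log2 fold change was -1.04 ± 0.15 (SE, limma adjusted p = 0.00234), with a 95% interval of -1.39 to -0.69. Only 11.4% of the 2932 probes with values on all arrays had a smaller spread within groups than LPA19.

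RBD1 is a membrane-bound rubredoxin, a small iron protein, that is required for photosystem II to accumulate in Arabidopsis, green algae and cyanobacteria. It read 1.44, 1.48, 1.27 and 1.16 on the normal arrays. On the high CO2 arrays it read 0.822, 0.885, 0.856 and 0.767. Here too the groups did not overlap, with means of 1.34 ± 0.15 and 0.833 ± 0.0506 (SD, n = 4 each). The log2 fold change was -0.78 ± 0.16 (SE, limma adjusted p = 0.00857), with a 95% interval of -1.14 to -0.41. With a running trend along the probe numbers taken out of each array, the log2 fold change of RBD1 was -0.43 ± 0.18 (SE, limma adjusted p = 0.105), which ends the call and moves the log2 value by over 1.5 times. The same step left LPA19 at -0.68, still past the threshold, again with a log2 value over 1.5 times nearer to 0. The probes of LPA19 and RBD1 are numbered 4071 and 4108 and so lie close together in that order. The trend taken out was nearly the same for both, -0.36 for LPA19 and -0.35 for RBD1. It is a running median over 51 neighbouring probes, so their windows share probes and this likeness is partly built in.

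**Figure D1:**
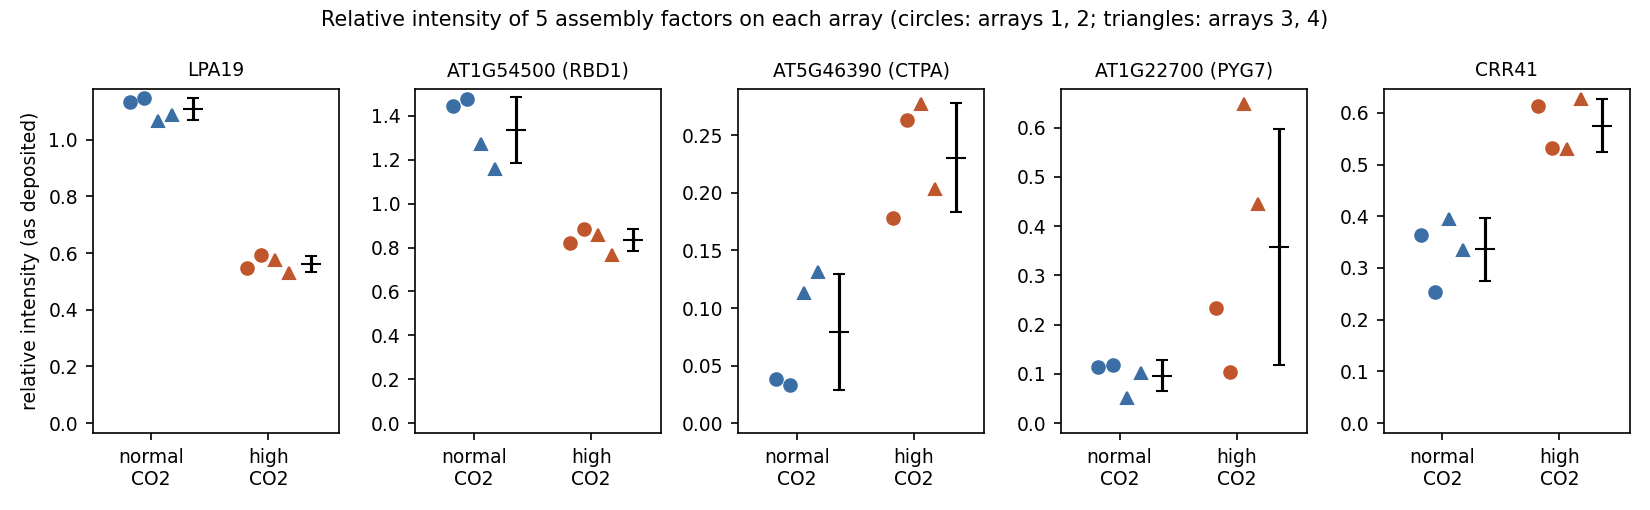
Relative intensity as deposited (y axis, linear, from 0) of the 5 assembly factors on each array, at normal CO2 (blue) and at high CO2 (orange), with arrays 1 and 2 as circles, arrays 3 and 4 as triangles, and the mean ± SD of each group in black (n = 4). LPA19 and RBD1 are lower on all high CO2 arrays, and for PYG7 the high CO2 array at 0.104 lies among the normal ones.

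CTPA is the protease that cuts the C-terminal tail off the PsbA precursor. The sources used here do not say whether AT5G46390 is the locus that does so. Its probe was dim, and was among those left out when the dimmest 25% were removed. It read 0.0383, 0.033, 0.113 and 0.131 on normal replicates 1 to 4. It read 0.178, 0.264, 0.277 and 0.204 on high CO2 replicates 1 to 4. The high CO2 arrays were all above the normal ones, but normal replicates 1 and 2 were much lower than normal replicates 3 and 4. Means were 0.0788 ± 0.0505 and 0.231 ± 0.0472 (SD, n = 4 each), and the log2 fold change was 1.73 ± 0.54 (SE, limma adjusted p = 0.0411), with a 95% interval of 0.49 to 2.96. The call ended without normal replicate 1 (limma adjusted p = 0.101) or 2 (0.0815), and without high CO2 replicate 1 (0.0688), 2 (0.0874), 3 (0.0825) or 4 (0.0617).

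The probes that AT5G46390 shares with other loci, or that carry only those loci, went the other way. A probe annotated to AT5G46390, AT4G17740 and AT3G57680 together read 0.28, 0.286, 0.306 and 0.202 at normal CO2. At high CO2 it read 0.148, 0.186, 0.148 and 0.11, so the groups did not overlap. Its log2 fold change was -0.93 ± 0.27 (SE, limma adjusted p = 0.0322). That call ended with a random block for the pair (adjusted p = 0.136 by limma), in arrays 1 and 2 alone (-0.53, adjusted p = 0.113) and in arrays 3 and 4 alone (-1.34, adjusted p = 0.0537). A probe annotated to AT4G17740 and AT3G57680 read 0.0907, 0.1, 0.116 and 0.0801 at normal CO2, was listed at 0 on high CO2 replicates 1 and 2, and read 0.0031 and 0.0251 on replicates 3 and 4. With 2 values at 0 it was not tested. Which locus these probes measure cannot be told apart, so the rise of the probe with AT5G46390 alone does not stand for all loci of the group.

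**Figure D2:**
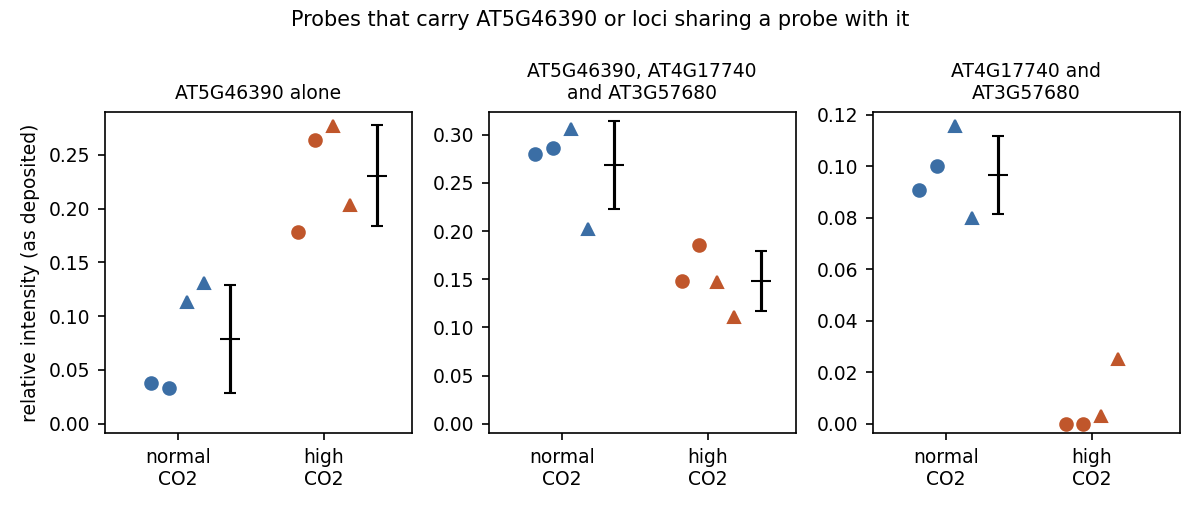
Relative intensity as deposited (y axis, linear) on each array for the probe of AT5G46390 alone and for the probes annotated to 3 and to 2 loci, at normal CO2 (blue) and high CO2 (orange), with arrays 1 and 2 as circles and 3 and 4 as triangles. Black marks are means ± SD (n = 4), left out for the group with arrays listed at 0. The first probe is higher at high CO2 and the other probes are lower.

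PYG7 is a thylakoid protein with tetratricopeptide repeats that is needed in Arabidopsis for stable assembly of photosystem I. It read 0.114, 0.119, 0.0513 and 0.102 on the normal arrays. On the high CO2 arrays it read 0.235, 0.104, 0.649 and 0.444, the widest scatter among the 5 genes at that CO2 level. In the deposited values the groups overlapped, unlike those of the other 4 genes, since high CO2 replicate 2 lay below normal replicates 1 and 2. After normalization it lay just above them, at -3.09 against -3.14 at most on the log2 scale. Means were 0.0966 ± 0.031 and 0.358 ± 0.239 (SD, n = 4 each), and the log2 fold change was 1.59 ± 0.48 (SE, limma adjusted p = 0.0384), with a 95% interval of 0.47 to 2.71. The call ended with the values as deposited (limma adjusted p = 0.0625), when any 1 of the 4 normal arrays was left out (0.0651 to 0.0887), and without high CO2 replicate 1 (0.0653), 3 (0.078) or 4 (0.086). It held without high CO2 replicate 2 (limma adjusted p = 0.009).

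CRR41 is a stromal factor that in Arabidopsis takes part in building the NDH subcomplex A, the arm that holds the plastid-encoded NdhH. It read 0.363, 0.253, 0.395 and 0.334 at normal CO2. It read 0.614, 0.532, 0.529 and 0.627 at high CO2. The groups did not overlap, and the lowest reading was that of normal replicate 2. Means were 0.336 ± 0.0608 and 0.575 ± 0.0519 (SD, n = 4 each), and the log2 fold change was 0.74 ± 0.22 (SE, limma adjusted p = 0.0333), with a 95% interval of 0.24 to 1.24. The call ended without normal replicate 1 (limma adjusted p = 0.0724), 2 (0.0683) or 4 (0.0575), without high CO2 replicate 1 (0.074), 2 (0.0661) or 4 (0.0617), and once that running trend was taken out (0.0657).

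By an exact permutation test of the normalized values over the 70 splits of the 8 arrays, each of the 5 genes had a two-sided p of 0.0286, the smallest this design can give. That value is reached by every probe whose groups do not overlap, which held for 38.6% of the 2932 probes with values on all arrays after normalization, and for 35.7% of them as deposited. In size, the change of AT5G46390 exceeded that of 92.9% of all probes tested and that of PYG7 exceeded 91.3%. LPA19 exceeded 76.6%, RBD1 63.7% and CRR41 61.5%. The genes with the larger changes were also those with the wider spread: 90.2% of probes varied less within groups than AT5G46390 and 87.7% less than PYG7. Both also read low at normal CO2, with means of 0.0788 and 0.0966, under the lowest array median of 0.212. PYG7 was not among the dimmest 25% of probes. The size of both changes depended on how low values were treated. With 0.0549, the 10th percentile of values above 0, added to each value, the log2 fold change was 1.16 for AT5G46390 and 1.23 for PYG7. With values below percentile 5 of an array raised to that percentile, it was 1.75 and 1.62.

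**Figure D3:**
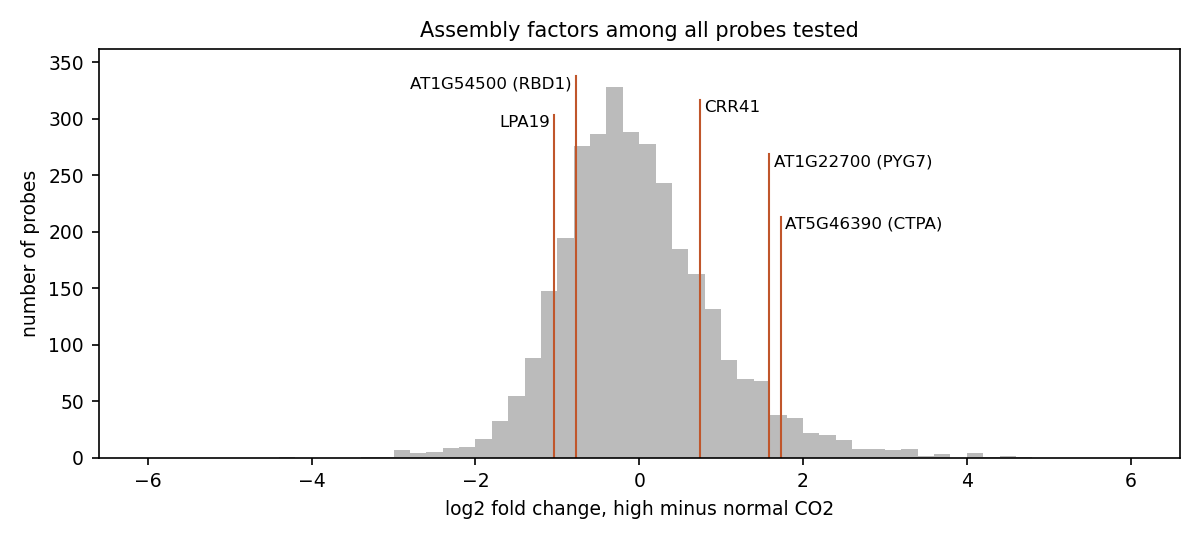
Number of probes (y axis) by log2 fold change, high minus normal CO2 (x axis), for the 3154 probes tested, with the 5 assembly factors marked by vertical lines of arbitrary height. LPA19 at -1.04 and RBD1 at -0.78 lie on the left flank, CRR41 at 0.74 on the right flank, and PYG7 at 1.59 and AT5G46390 at 1.73 further out in the right tail.

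Taken alone, the pair of arrays 1 and 2 gave LPA19 a log2 fold change of -0.82 ± 0.14 (SE, limma adjusted p = 0.029), and arrays 3 and 4 gave -1.26 ± 0.13 (SE, limma adjusted p = 0.02). RBD1 was at -0.68 ± 0.13 (SE) in the first pair and at -0.87 ± 0.15 (SE) in the second, with adjusted p of 0.0387 and 0.0335 by limma. These 2 genes were thus called with the same sign in both pairs, as were 11.6% of all probes tested. Of all probes 28.5% were called in arrays 1 and 2 and 25.4% in arrays 3 and 4.

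The rises were uneven between the pairs. AT5G46390 had a log2 fold change of 2.85 ± 0.30 (SE, limma adjusted p = 0.0165) in arrays 1 and 2 and of 0.60 ± 0.21 (SE, limma adjusted p = 0.122) in arrays 3 and 4. CRR41 was likewise higher in the first pair, at 1.14 ± 0.24 (SE, limma adjusted p = 0.0436), than in the second, at 0.34 ± 0.18 (SE, limma adjusted p = 0.235). PYG7 had the opposite order, 0.63 ± 0.45 (SE, limma adjusted p = 0.327) in arrays 1 and 2 and 2.55 ± 0.43 (SE, limma adjusted p = 0.0332) in arrays 3 and 4. The difference between the pairs was tested as an interaction, which passed for 8.88% of all probes. Its residual spread, like that of each pair taken alone, is only the scatter between the 2 arrays of a pair. If those arrays are near repeats, the p-values of these fits do not measure variation between plants. The interaction passed for AT5G46390, at -2.25 ± 0.40 (SE, limma adjusted p = 0.0333). It did not pass for PYG7 at 1.92 ± 0.69 (SE, limma adjusted p = 0.134) or CRR41 at -0.80 ± 0.32 (SE, limma adjusted p = 0.163). For LPA19 it was -0.44, with a 95% interval of -0.86 to -0.03 and an adjusted p of 0.148 by limma. For RBD1 it was -0.20, with an interval of -0.65 to 0.26 and an adjusted p of 0.519 by limma. With the values as deposited the sign of this difference turned for LPA19 (0.038) and RBD1 (0.19).

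The unevenness of AT5G46390 lay in the control arrays. At normal CO2 alone, arrays 3 and 4 exceeded arrays 1 and 2 by 1.996 ± 0.28 on the log2 scale (SE, limma adjusted p = 0.0191), against -0.25 ± 0.28 (SE, limma adjusted p = 0.598) at high CO2. That contrast holds no treatment, and it passed for 9.38% of all probes at normal CO2 and for 10.1% at high CO2. Its residual spread, too, is only that between the 2 arrays of a pair. For PYG7 the larger value was at high CO2, 1.44 ± 0.49 (SE, limma adjusted p = 0.12), against -0.49 ± 0.49 (SE, limma adjusted p = 0.59) at normal CO2. For LPA19 it was 0.06 at normal CO2 and -0.38 at high CO2, and for RBD1 -0.17 and -0.36, with no adjusted p under 0.0992 by limma among these 4.

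With each pair as a random block, 13.9% of all probes were called. That fit takes 1 correlation within pairs, 0.552, for all probes, so it allows only in part for arrays that are near repeats. LPA19 (limma adjusted p = 0.0139) and RBD1 (0.0397) passed. AT5G46390 (0.0968), PYG7 (0.152) and CRR41 (0.144) did not. The data also hint that arrays with the same replicate number in both groups belong together. With the replicate number as a block, AT5G46390 (limma adjusted p = 0.0782), PYG7 (0.089) and CRR41 (0.0807) did not pass either. LPA19 (0.0188) and RBD1 (0.0237) did, and 830 of all 3154 probes were called in that fit. With the pairs averaged to 2 values a group no probe was called by limma, although 757 had an unadjusted p under 0.05, LPA19 among them (unadjusted p = 0.0193, adjusted p = 0.162).

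**Figure D4:**
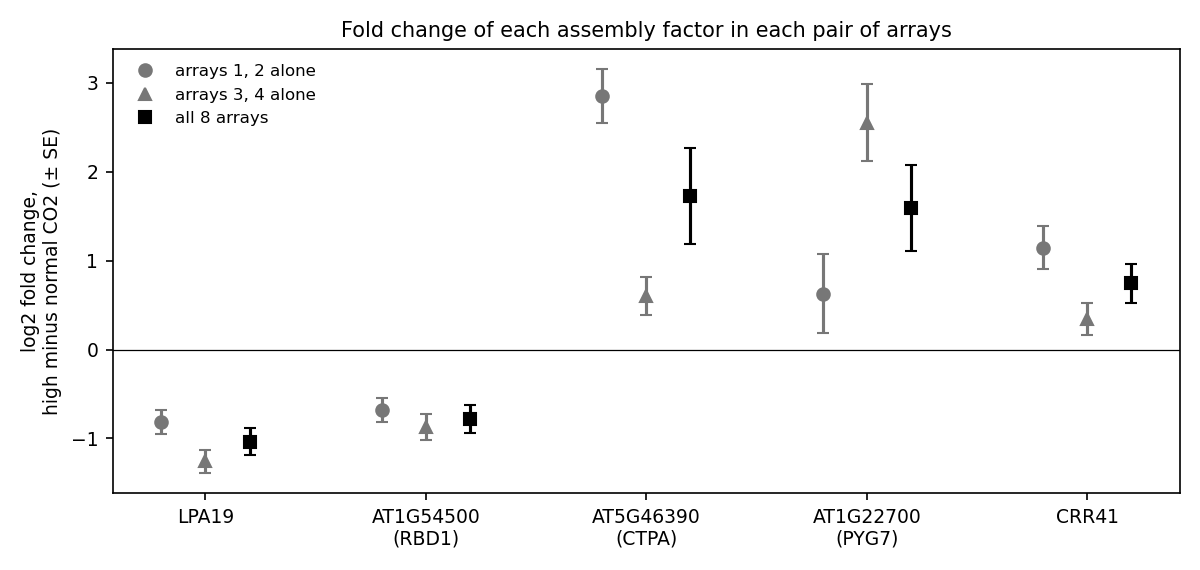
Log2 fold change, high minus normal CO2 (y axis, ± SE), of each assembly factor in arrays 1 and 2 alone (grey circles), arrays 3 and 4 alone (grey triangles) and all 8 arrays (black squares). LPA19 and RBD1 are below 0 in both pairs, AT5G46390 is at 2.85 and 0.60, and PYG7 at 0.63 and 2.55.

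**Figure D5:**
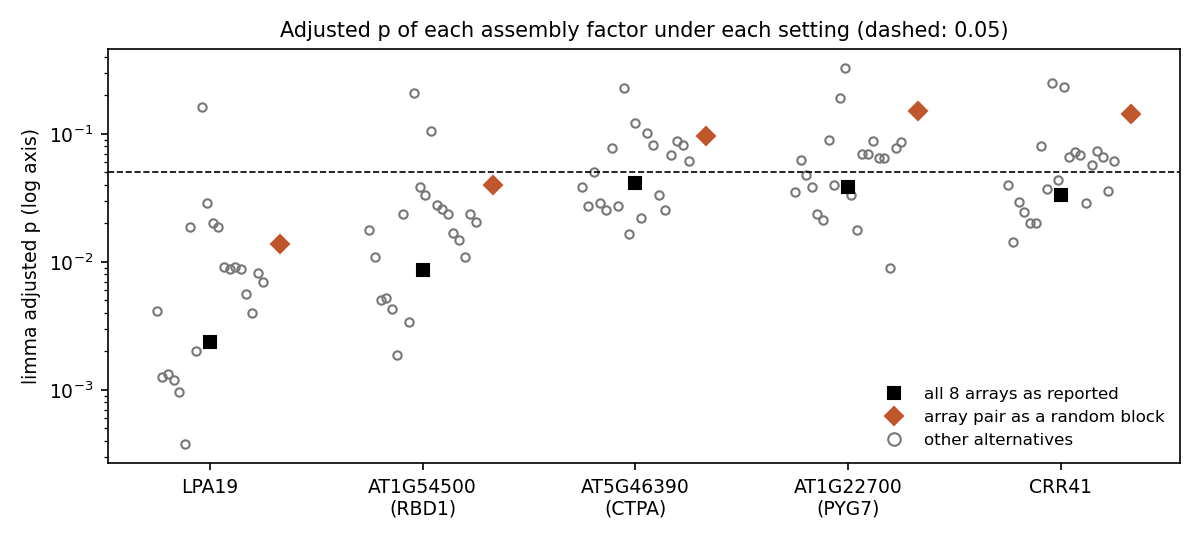
Adjusted p by limma (y axis, log scale) of each assembly factor with all 8 arrays as reported (black squares), with the array pair as a random block (orange diamonds) and under the other alternatives (open circles), with the threshold of 0.05 dashed. LPA19 stays under the line in 20 of 21 alternatives and RBD1 in 19 of 21, against 9 of 20 for AT5G46390, 9 of 21 for PYG7 and 10 of 21 for CRR41.

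Other assembly factors were looked up in 5 lists with 113 symbols, of which 94 were in the gene table. Apart from the 5 genes above, 6 were on a probe with 1 gene, and 5 of these could be tested. Of the 5, 1 fell, 0 rose and 4 did not pass, while of all probes tested 17.7% were called lower and 14.8% higher. The median log2 fold change of the 5 was 0.34, against -0.14 over all probes, a difference that was not tested. SECE1, a subunit of the thylakoid Sec translocase that inserts membrane proteins, fell from 0.521 ± 0.106 to 0.248 ± 0.0914 (SD, n = 4 each), a log2 difference of -1.15 ± 0.21 (SE, limma adjusted p = 0.00561). With a random block for the pair its adjusted p was 0.0557 by limma. It was called in arrays 1 and 2 alone (-1.43, limma adjusted p = 0.0167) but not in arrays 3 and 4 (-0.88, 0.128). As deposited its groups just overlapped, with normal replicate 3 at 0.3794 and high CO2 replicate 3 at 0.3798. PSB27, the lumenal photosystem II assembly protein to which LPA19 is related, had a log2 fold change of -1.06 ± 0.37 (SE, limma adjusted p = 0.0632).

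PSB27 read 4.57, 4.53, 4.14 and 3.09 at normal CO2 and 1.17, 1.34, 3.66 and 3.18 at high CO2. Its low readings were thus those of high CO2 replicates 1 and 2, and its interaction between CO2 and the array pairs passed, at 1.67 ± 0.28 (SE, limma adjusted p = 0.0303), whereas that of LPA19 did not. SPPA, a thylakoid protease, was at 0.55 (limma adjusted p = 0.123). In the NDH list, CRR21, a pentatricopeptide repeat protein for RNA editing of an NDH transcript, was at 0.34 (limma adjusted p = 0.167). CPN60B4, a chaperonin subunit that folds NdhH, was at 0.41 (limma adjusted p = 0.3). No other photosystem I assembly factor of the lists was on such a probe.

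Among 573 other single-gene probes with values on all arrays, those most like each gene were ranked by Pearson's r of the normalized log2 values over the 8 arrays. The arrays of both CO2 levels enter, so genes with the same contrast rank high, and r is given as a description. LPA19 was most like AT1G79220 (0.995), AT2G33180 (0.988) and AT2G04700 (0.987). RBD1 was most like AT2G19280 (0.98), LPA19 itself (0.975) and PSAN (0.974), a photosystem I subunit. AT5G46390 was closest to ATSIK (0.963), to PSBW (0.95), a small photosystem II subunit, and to AT5G05400 (0.95).

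The profiles nearest to PYG7 were those of AT3G20490 (0.954), AT3G61540 (0.944) and AT5G26850 (0.927). AT3G20490 also differed between the pairs of arrays, with log2 fold changes of 0.41 and 2.45. The profiles nearest to CRR41 were those of AT5G49800 (0.964), AT1G18060 (0.948) and AT3G52070 (0.946). LPA19 and RBD1 thus stood among each other's near neighbours in 1 direction only, since RBD1 was not among the 3 probes most like LPA19.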

How the data were processed

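The deposited file holds 1 relative intensity per probe and array, linear and running from 0 to 100 on every array. How the authors treated background and scaling is not given in the sources used here, nor is a genome build. Array medians ran from 0.212 to 0.28, a range of 32.0%, and each array listed 133 to 219 probes at 0. Zeros were left out as missing, log2 was taken of the deposited values above 0, and probes with at least 3 values a group (3154) were quantile normalized. The CO2 levels were compared by limma, version 3.58.1 under R 4.3.3 (two-sided moderated test, Benjamini-Hochberg over the 3154 probes, threshold 0.05). Pairs of arrays were compared in a fit with 4 cells of 2 arrays. A position trend was the running median over 51 neighbouring probes of each array's deviation from the probe mean. The number of arrays limits the precision, and p-values reflect only how these arrays scatter, in part perhaps technically. The script was tested on simulated data. Probes were named through the platform annotation and a gene table of assembly TAIR10.1. Genes named are the 5 members, the genes of the assembly lists, and the 3 profiles most like each member; members and lists were chosen with earlier results of these data known. CPN60B4 was matched to its spelling in the table (Cpn60beta4) afterwards. Lists of root, senescence and stress markers had 0 genes on a single-gene probe. Python 3.11.15 with matplotlib 3.10.9 drew the figures.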

Additional observations from a re-analysis of the deposited data

Results flagged for a closer look

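Among 10 groups of 4 arrays (5 genes at 2 CO2 levels), a far-off array was found in 1, and chance alone would flag about 0.5. It was PYG7 at normal CO2, where replicate 3 lay at a normalized log2 value of -4.09 against -3.16 to -3.14 in the others, and the gap took up 0.975 of the group's range. Without that array the log2 fold change of PYG7 was 1.35 (limma adjusted p = 0.0887). The change of AT5G46390 differed between the pairs of arrays, with a log2 fold change in arrays 3 and 4 that was lower than in arrays 1 and 2, a difference of -2.25 (limma adjusted p = 0.0333). The cause of either was not tested.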

How the results depend on the processing

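Each of the 5 genes kept its sign in all 104 values from the alternatives, and 67 of these passed the threshold. Because the groups of the 5 genes do not overlap after normalization, fits to subsets, averages or blocks of those values could not turn a sign. Only settings that changed the values themselves could, so most of the kept signs were fixed beforehand. Averaging the pairs ended every call, with adjusted p by limma of 0.162 for LPA19 (log2 fold change -1.04), 0.21 for RBD1 (-0.78), 0.23 for AT5G46390 (1.73), 0.192 for PYG7 (1.59) and 0.249 for CRR41 (0.74), and left 0 probes called, 0 higher and 0 lower. The array pair as a random block ended the calls of AT5G46390 (1.73), PYG7 (1.59) and CRR41 (0.74), and left 438 probes of 1025, 235 higher and 203 lower. The call of AT5G46390 also ended with the floor (1.75, adjusted p = 0.0507) and in arrays 3 and 4 alone (0.60), that of PYG7 with the values as deposited (1.66) and in arrays 1 and 2 alone (0.63), that of CRR41 in arrays 3 and 4 alone (0.34) and without the position trend (0.61), and that of RBD1 without the position trend (-0.43). With the values as deposited the difference between the pairs turned to 0.038 for LPA19 and 0.19 for RBD1, neither past the threshold before or after. That setting also moved the share of higher calls from 45.6% to 56.3%, and the position trend's removal moved it to 54.9%. Leaving out 1 array gave log2 fold changes of -1.12 to -0.95 for LPA19, -0.85 to -0.69 for RBD1, 1.32 to 2.09 for AT5G46390, 1.25 to 2.02 for PYG7 and 0.58 to 0.87 for CRR41, and 733 to 909 calls, 370 to 422 higher and 363 to 502 lower. Deviations from the group means correlated at 0.0629, 0.102, 0.125 and 0.0731 between arrays with the same replicate number. All are above 0 but 2 of the 4 are under 0.1, so the numbers were not treated as pairs, although 8 of 8 arrays were most like the array of the other group with their own number, which is a hint of pairing from the data. The replicate block gave 830 calls, and adjusted p of 0.0782 for AT5G46390 (1.73), 0.089 for PYG7 (1.59) and 0.0807 for CRR41 (0.74). The other causes were not tested. The probe with 3 loci passed with median centring and as deposited, both chosen after seeing the data, and did not pass with the random block or in either pair alone.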

Other observations

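CCB3, a factor of the pathway that attaches a haem to cytochrome b6, was on a single-gene probe that could not be tested. It was listed at 0 on normal replicates 1, 3 and 4 and on high CO2 replicates 1 and 2. Where it had a value it read 0.0262 on normal replicate 2, and 0.0335 and 0.0744 on high CO2 replicates 3 and 4.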
